A study of Mus musculus with 12 samples.

Results

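Cluster 5 of the 28W kidney library was examined here as the *Il7r*-high cluster of kidney PD-1+CD44+CD8+ T cells. Its members are the cell barcodes with cluster number 5 in the deposited assignment. There were 631 such cells among 7135 in the 28W kidney library (8.84%, exact binomial 95% interval 8.19 to 9.53%) and among 20510 in the whole series. In the series, T cells with the surface phenotype PD-1+CD44+CD8+ were taken from NZB/W F1 mice, a strain cross in which lupus nephritis appears with age, and the labels name no treatment. The groups are 12W spleen (age 12 weeks), 28W spleen and 28W kidney (age 28 weeks). For 28W spleen the age given among the sample characteristics is 12 weeks, and the title was followed instead. All 3 groups share the strain and the sort, and the study's methods describe female mice. Kidney tissue was digested with collagenase before the sort, a step that the methods do not describe for spleen. Each group has 4 labelled samples, but the tables pool them without a map from cells to samples, and the number of mice is not stated in the sources used here. Each group was therefore 1 library with no replicate, and no difference below has a test.

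The IL-7 receptor alpha chain, encoded by *Il7r*, pairs with the common gamma chain and passes IL-7 signals through JAK1, JAK3 and STAT5 to survival genes such as *Bcl2*. Naive T cells and memory T cells keep the receptor, whereas CD8+ T cells in an effector response usually reduce it. LEF1, with its relative TCF1 (gene *Tcf7*), is a transcription factor of naive and memory T cells, and KLF2 drives the genes through which T cells leave tissues and reach lymph nodes.

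The 10x Genomics 5′ chemistry used here counts transcripts by unique molecular identifiers (UMIs). The tables give the mean count of each gene in each cluster, from which whole UMIs were recovered. Levels are UMIs per 1000000 UMIs of a cluster (CPM). Cluster 5 held 2160297 UMIs, and 3424 UMIs per cell on average, against 4271 in the other kidney cells. It ranked number 5 of 12 clusters by cells and number 8 by UMIs per cell. A gene with 0 UMIs in cluster 5 could have had up to 1.39 CPM (3 counts). Intervals on levels are exact Poisson 95% limits and those on ratios exact conditional 95% limits. All cover counting error only. Of the 631 barcodes, 5 also occurred in the 28W spleen library and 7 in the 12W spleen library. Cells of 1 cluster share a library, and the cluster was made from the same genes, so every comparison of cluster 5 with other kidney cells is a description and supports nothing.

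The 11 other kidney clusters were not all alike. The summed B cell marker level and the summed myeloid marker level were highest in cluster 12, the summed kidney tubule level in cluster 7, red cell markers and mitochondrial transcripts in cluster 2 and the proliferation list in cluster 11. The B cell gene *Cd79a* and the AP-1 and NF-kB lists were highest in cluster 8, with *Cd79a* at 1074 CPM. Values are therefore given against all other kidney cells and, beside these, against the 4034 cells of clusters 1, 3, 4, 6, 9 and 10 (the 6 comparison clusters).

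*Il7r* (GRCm38 chromosome 15, 9505788 to 9530176) had its highest kidney level in cluster 5. It was at 624 CPM (1347 UMIs, interval 591 to 658), or 2.13 UMIs per cell. Cluster 9 followed at 404 CPM (interval 379 to 430), cluster 4 at 266 and cluster 10 at 249. The remaining clusters lay between 25.9 CPM in cluster 11 and 135 CPM in cluster 8, so no other cluster reached the interval of cluster 5. The level was 4.97-fold that of all other kidney cells (interval 4.66 to 5.29), which stood at 125 CPM, and 4.01-fold that of the 6 comparison clusters (interval 3.75 to 4.28).

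*Lef1*, given with *Il7r* as a marker of this cluster, separated it less clearly. It was at 82.9 CPM in cluster 5 (179 UMIs, interval 71.2 to 95.9). Cluster 8 stood at 86.4 CPM (interval 75.8 to 97.95) and cluster 9 at 76.4 (interval 65.7 to 88.3). The intervals of clusters 5, 8 and 9 overlapped, and the other clusters lay between 18.2 and 51.7 CPM. Against all other kidney cells the level was 1.94-fold higher (interval 1.65 to 2.28). The label *Il7r*-high thus described the cluster within the kidney, while a high *Lef1* level was shared with clusters 8 and 9, of which cluster 8 holds B cell transcripts.

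**Figure D1:**
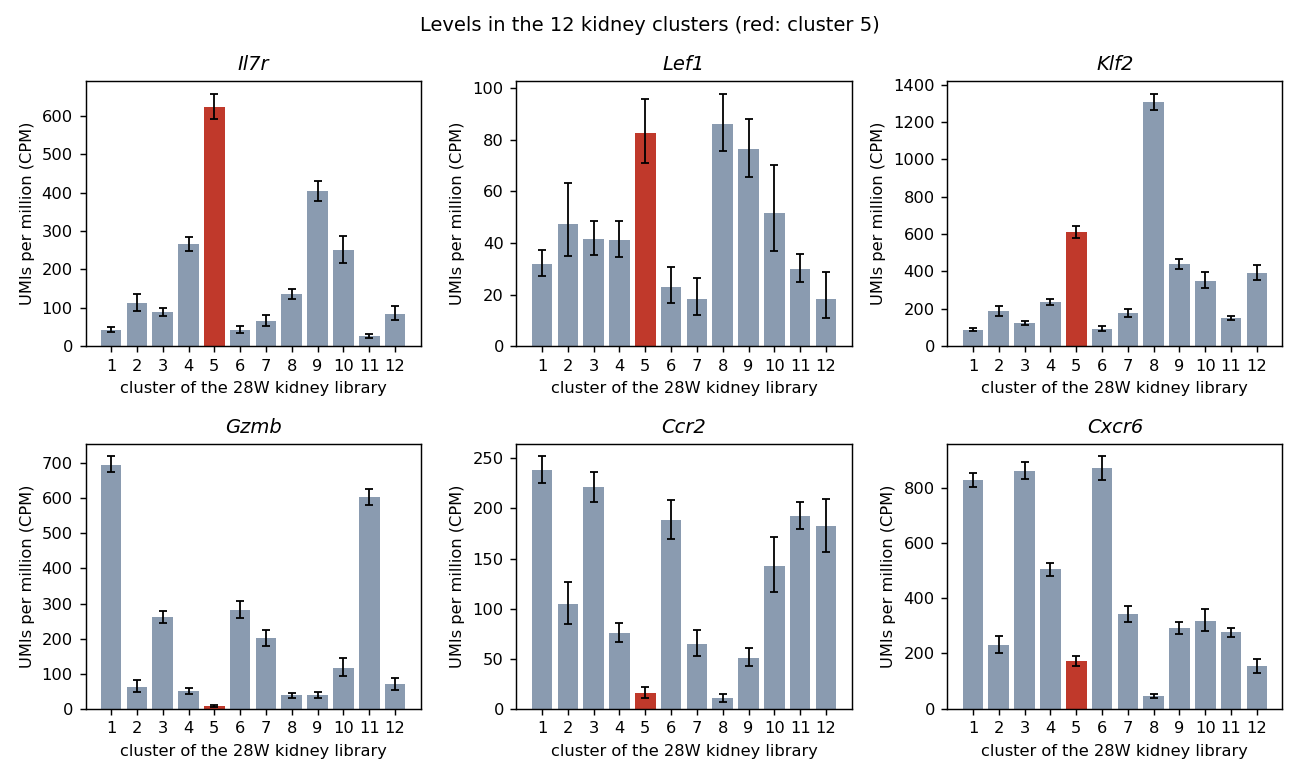
Levels of 6 genes in the 12 clusters of the 28W kidney library, in UMIs per 1000000 (CPM), with exact Poisson 95% limits as bars; cluster 5 is red. *Il7r* was highest in cluster 5 (624 CPM) and *Gzmb* lowest (6.94 CPM), while *Lef1* overlapped clusters 8 and 9 and *Klf2* was exceeded by cluster 8 (1309 CPM).

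The sequences shown are the 250 bases before the RefSeq start of 4 genes on which the description turns, the markers *Il7r* and *Lef1*, the egress regulator *Klf2* and the low gene *Gzmb*. They come from RefSeq on GRCm38.p6 and run 5′ to 3′ on the gene's strand. *Il7r* is chr15:9529877-9530126 on the minus strand, *Lef1* chr3:131110047-131110296 on the plus strand (from the first of 4 listed starts), *Klf2* chr8:72318812-72319061 on the plus strand and *Gzmb* chr14:56262335-56262584 on the minus strand. Gene bounds elsewhere in the text are those of GENCODE, which differ from the RefSeq starts. The *Il7r* window lies wholly inside its GENCODE bounds, which end at 9530176, and the end of the *Klf2* window lies inside the bounds of *Klf2*, which begin at 72319033. Capitals mark matches on either strand to CTTTGA (TCF/LEF), CCNCNCCC (KLF), GTAAACA (FOXO), TTCNNNGAA (STAT), TGTGGT (RUNX) or GGAAGT (ETS), which may overlap.
Il7r: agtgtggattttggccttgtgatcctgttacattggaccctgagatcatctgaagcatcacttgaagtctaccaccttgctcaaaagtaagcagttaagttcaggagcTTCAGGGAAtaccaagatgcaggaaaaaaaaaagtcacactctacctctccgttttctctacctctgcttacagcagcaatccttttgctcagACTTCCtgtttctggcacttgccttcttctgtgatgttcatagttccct
Lef1: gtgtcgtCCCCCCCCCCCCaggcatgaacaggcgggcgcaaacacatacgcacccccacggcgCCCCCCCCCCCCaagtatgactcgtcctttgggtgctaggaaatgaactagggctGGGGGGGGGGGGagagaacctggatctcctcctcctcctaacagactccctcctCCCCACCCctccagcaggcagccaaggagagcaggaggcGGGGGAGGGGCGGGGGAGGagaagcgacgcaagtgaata
Klf2: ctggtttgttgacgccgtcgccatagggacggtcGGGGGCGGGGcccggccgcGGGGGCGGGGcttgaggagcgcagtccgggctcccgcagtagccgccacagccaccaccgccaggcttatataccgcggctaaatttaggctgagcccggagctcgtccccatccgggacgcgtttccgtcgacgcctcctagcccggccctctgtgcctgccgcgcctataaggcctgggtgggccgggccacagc
Gzmb: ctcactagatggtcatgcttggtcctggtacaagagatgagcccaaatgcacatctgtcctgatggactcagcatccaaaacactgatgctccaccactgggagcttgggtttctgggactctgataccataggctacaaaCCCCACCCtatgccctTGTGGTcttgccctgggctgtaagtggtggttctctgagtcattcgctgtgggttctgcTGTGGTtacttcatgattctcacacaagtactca
The *Il7r* window held 1 STAT and 1 ETS match, found in 7.18% and 20.0% of 27025 promoter windows. The *Klf2* window held 4 KLF matches and the *Gzmb* window 1 KLF and 2 RUNX matches. In *Lef1*, 20 overlapping KLF matches lay mostly in runs of C or G. The KLF letters occur in 45.6% of all windows and the RUNX letters in 14.2%. Of the 15 genes with the highest ratios described next, 10 had a promoter entry. Of these, 5 held the KLF letters (50%), 2 the ETS letters (20%), and 1 each the TCF/LEF, FOXO, STAT and RUNX letters (10%, against 14.05%, 3.09%, 7.18% and 14.2% of all windows). These matches are letters in a window and not sites.

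Across all genes, cluster 5 had few genes with higher levels and many with lower ones. With V, D and J segments set apart, 7059 genes had a mean of at least 10 CPM over cluster 5 and all other kidney cells. Of these, 162 were at least 1.5-fold higher in cluster 5 (2.29%) and 1208 at least 1.5-fold lower (17.1%), on a log2 scale with 1 CPM added. Without cluster 11, which held the most UMIs per cell, the number of higher genes was 107. Against the 6 comparison clusters, 148 of 6879 genes were higher (2.15%) and 977 lower (14.2%). The median log2 ratio over all genes was -0.25 against all other cells and -0.26 against the 6 comparison clusters. A list is therefore read beside that median, and its counts beside these shares of higher and lower genes. The share of lower genes among those past the fold was 88.2%. It was 60.8% when levels were scaled by the median of ratios and 63.8% with totals that left out receptor, mitochondrial and ribosomal genes.

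Ribosomal protein genes took 36.9% of the UMIs of cluster 5, more than in any other kidney cluster (7.82 to 32.0%). Of 81 cytosolic ribosomal protein genes above the minimum level, 79 were higher than in all other kidney cells, with a median ratio of 1.52, and 65 had their highest kidney level in cluster 5. *Rps27l* (0.51-fold) and *Rpl7l1*, both paralogs of core ribosomal genes, were the exceptions. At the 1.5-fold bound, 45 of the 81 were higher and 1 lower, and 18 higher and 1 lower against the 6 comparison clusters. Against cluster 9 alone, and against cluster 4 alone, 0 of 81 passed the bound in either direction. Those clusters held 31.9% and 31.2% ribosomal UMIs. Some spleen clusters exceeded cluster 5, with 40.1% in cluster 1 of 28W spleen and 39.4% in cluster 6 of 12W spleen. Mitochondrial transcripts made up 0.678% of UMIs, within the range of the other clusters (0.515 to 10.8%).

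**Figure D2:**
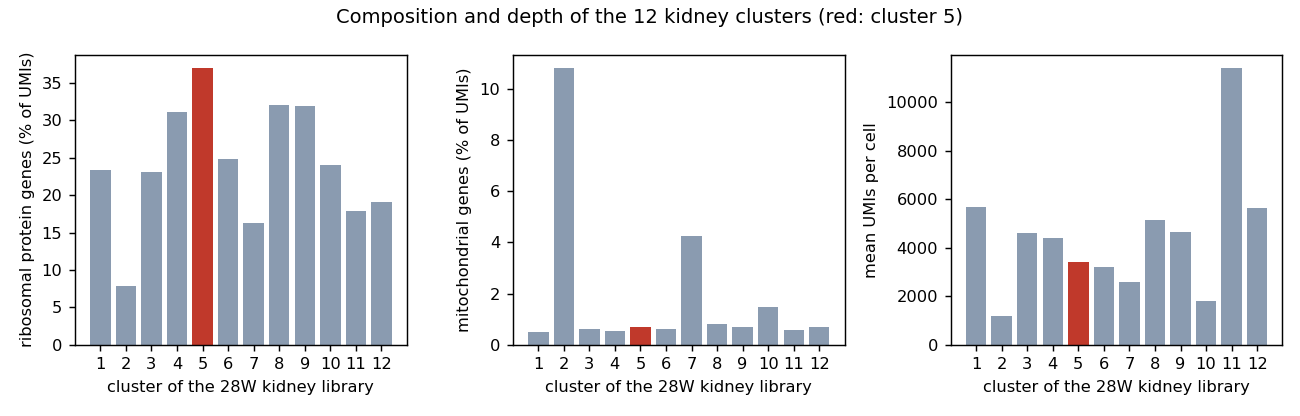
Share of UMIs from cytosolic ribosomal protein genes, share from mitochondrial genes and mean UMIs per cell in each of the 12 clusters of the 28W kidney library; cluster 5 is red. The ribosomal share of cluster 5 (36.9%) was the highest, its mitochondrial share (0.678%) lay within the range of the others and its depth (3424 UMIs per cell) was below the average of the other cells.

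After *Il7r*, the highest ratios against all other kidney cells belonged to genes with low to moderate levels. *Dapl1*, a gene of naive and memory T cells, was at 162 CPM against 62.8 (2.58-fold, interval 2.29 to 2.90). *Tdrp* was at 115 CPM against 38.6, and *Rflnb* at 113 against 45.3. These 3 genes and *Il7r* all had their highest kidney level in cluster 5. *Nsg2* was at 95.4 CPM against 38.9, and cluster 9 stood slightly higher at 105.

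The highest 15 also held 3 genes of the TNF ligand and receptor families and the ecto-enzyme gene *Nt5e*. *Tnfsf8*, encoding CD30 ligand, was at 27.8 CPM against 10.2 (2.73-fold, interval 2.03 to 3.61). *Cd40lg*, encoding CD40 ligand, was at 16.2 CPM (35 UMIs) against 5.98 (2.71-fold, interval 1.83 to 3.92). *Tnfrsf25*, which encodes death receptor 3, was at 23.1 CPM against 8.14. All of these were highest in cluster 5, although for each another cluster lay within the cluster 5 interval. Cluster 4 stood at 21.4 CPM for *Tnfrsf25* and 13.3 for *Cd40lg* (interval of its level in cluster 5, 11.3 to 22.5), and cluster 8 at 25.7 for *Tnfsf8*. *Nt5e*, encoding the ecto-nucleotidase CD73, was at 21.8 CPM against 6.98 (3.12-fold, interval 2.22 to 4.30). Cluster 10 stood at 23.2 CPM for *Nt5e*, and *Irgc1*, at 17.1 CPM against 4.43, had the second highest ratio on only 37 UMIs. *Arhgap5*, *Il6ra*, *Lysmd2*, *Krt10* and *Nrn1* completed the 15, with log2 ratios between 1.11 and 1.42. *Il6ra*, the IL-6 receptor alpha chain, was at 29.6 CPM against 12.2. All 15 stayed at least 1.5-fold higher against the 6 comparison clusters.

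The 15 lowest genes against all other kidney cells were mostly genes of other cells or of dividing cells. *S100a8*, *S100a9*, *Ngp* and *Camp* of neutrophils, the hemoglobin genes *Hbb-bs* and *Hba-a1*, the plasma and B cell genes *Jchain*, *Mzb1*, *Ighg2b* and *H2-Aa*, the division genes *Birc5*, *Ube2c*, *Nusap1* and *Pclaf* and the unnamed gene model *Gm20730* made up the set. *S100a9* had 0 UMIs in cluster 5 and 232 CPM in the other cells. In the 6 comparison clusters *S100a9* stood at 1.38 CPM. For that reason the lowest genes against these 6 clusters were ranked as well, a ranking added after values were seen.

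*Gzmb*, encoding the cytotoxic protease granzyme B, was the lowest against the 6 comparison clusters. Cluster 5 had 15 *Gzmb* UMIs in 631 cells, or 6.94 CPM (interval 3.89 to 11.5). Cluster 8 stood at 38.2 CPM, cluster 9 at 39.7 and cluster 4 at 50.4, and cluster 1 reached 696. No other cluster overlapped the interval of cluster 5. The 6 comparison clusters were at 312 CPM, 45.0-fold higher than cluster 5 (interval 27.3 to 80.4).

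Receptors for inflammatory chemokines were low with it. *Ccr2* was at 15.3 CPM in cluster 5 (33 UMIs, interval 10.5 to 21.5) and 167 CPM in the 6 comparison clusters, a 10.9-fold difference (interval 7.75 to 15.9). Only cluster 8 was lower, at 10.3 CPM. *Cxcr6*, a receptor of T cells held in tissues, was at 172 CPM (interval 155 to 190) against 678 (3.95-fold lower, interval 3.56 to 4.39). Clusters 8 and 12 stood below cluster 5 for *Cxcr6*, at 46.0 and 154 CPM, and the interval of cluster 12 (131 to 180) overlapped its own. *Cxcr3* was at 313 CPM against 543. Of 12 chemokine receptors listed, 6 were above the minimum and none was higher. Against all other cells 3 of the 6 were lower, and against the comparison clusters 4 of 6, with medians of -0.999 and -1.38. Among all genes, 17.1% and 14.2% were lower in these 2 comparisons. The named set also held *Fgl2*, a fibrinogen-like secreted protein (11.1 CPM against 129), the lysosomal sulfatase gene *Arsb* (4.17 against 50.6) and the death ligand *Fasl* (22.7 against 96.0). *Lgals3*, encoding galectin-3, was at 28.7 CPM against 113.

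**Figure D3:**
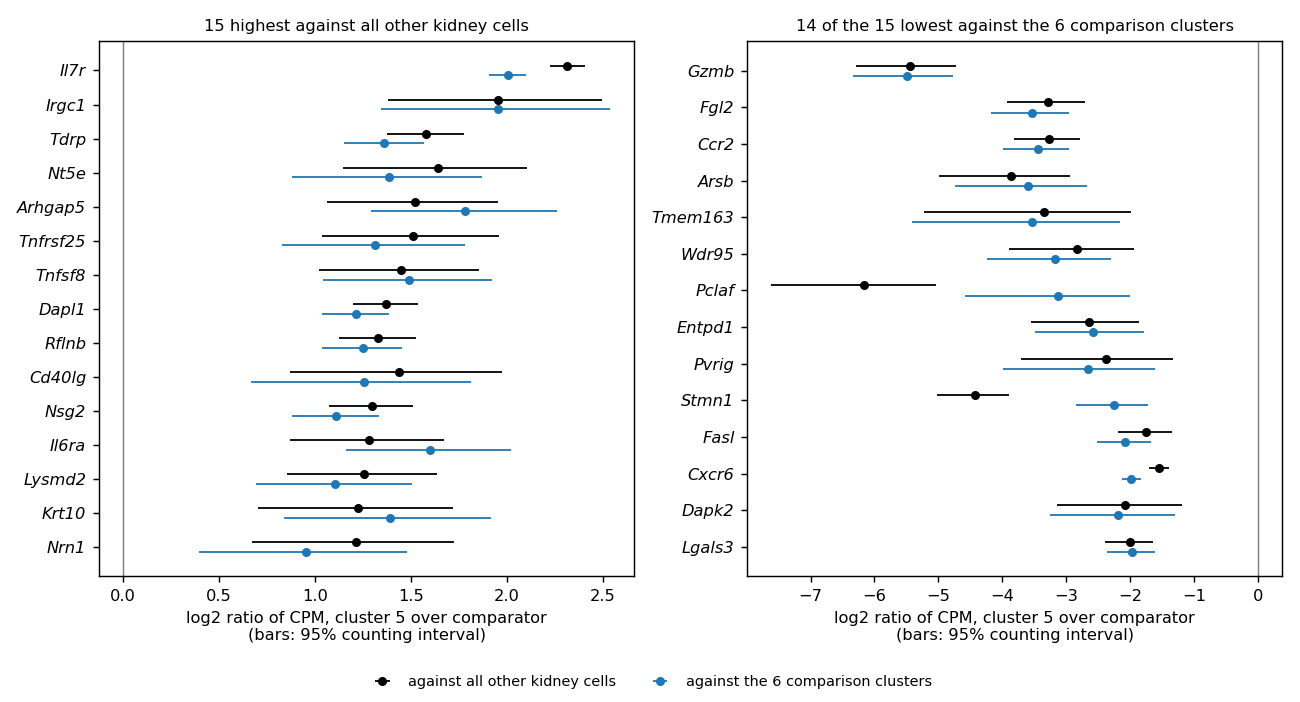
Log2 ratio of CPM in cluster 5 over all other kidney cells (black) and over the 6 comparison clusters (blue), with 95% counting intervals as bars, for the 15 genes highest against all other cells and 14 of the 15 lowest against the 6 comparison clusters. The 15 higher genes held their direction with both comparators, while *Pclaf* and *Stmn1* moved most between them.

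Within the naive and memory list, 13 of 13 genes were above the minimum. Against all other kidney cells 5 were higher and none lower, and against the 6 comparison clusters 7 were higher and none lower. The list medians were 0.24 and 0.72. Both counts include *Lef1*, a marker that was given for this cluster. Over all genes, 2.29% and 2.15% were higher in these 2 comparisons. *Tcf7* was at 141 CPM in cluster 5 and 71.9 in all other cells (1.96-fold, interval 1.74 to 2.22). Clusters 9 and 10 were higher still, at 149 and 174 CPM, so cluster 5 did not stand alone. *Slamf6*, a receptor of memory and stem-like T cells, was at 147 CPM against 94.5. *Ccr7*, the lymph node homing receptor, was at 88.0 CPM against 77.5 in all other cells and 33.6 in the comparison clusters, and cluster 8 held 460. The memory receptor *Cd27*, at 157 CPM, was near the 179 of the other cells.

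Of 7 genes of the KLF and sphingosine 1-phosphate egress list, 6 were above the minimum, and 3 were higher with both comparators and none lower. The shares of higher genes over all genes were 2.29% and 2.15%. *Klf2* was at 610 CPM (interval 577 to 643), against 301 in all other kidney cells and 185 in the comparison clusters (3.30-fold, interval 3.09 to 3.52). Only cluster 8 was higher, at 1309 CPM, and cluster 9 followed at 439. *Klf3*, a repressor of the same family, was at 104 CPM and highest in cluster 5 (others 24.2 to 87.8), with 48.5 in all other cells (2.14-fold, interval 1.85 to 2.46). *S1pr1*, the egress receptor, was at 78.7 CPM against 51.2 (1.54-fold, interval 1.30 to 1.80).

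Most genes that carry the IL-7 signal lay within the 1.5-fold bound. Of 14 listed, 13 were above the minimum, 3 were higher (*Il7r*, *Bcl2* and *Socs1*) and 1 was lower (*Pim1*), and the list median was 0.05. *Bcl2*, the survival gene, was at 84.7 CPM against 42.4 (1.996-fold, interval 1.70 to 2.33). Clusters 10 and 9 stood at 86.5 and 84.3 CPM for *Bcl2*, so cluster 5 shared this level with them. The partner chain gene *Il2rg* was at 658 CPM against 638, *Jak1* at 217 against 264 and *Stat5b* at 38.4 against 33.7. *Pim1* was at 100 CPM against 195 in all other cells but 77.6 in the comparison clusters, where no member was lower. Among 23 cytokine receptors, 17 were above the minimum, with 3 higher (*Il7r*, *Il6ra* and *Il18r1*) and 5 lower. Over all genes, 2.29% were higher and 17.1% lower, and *Il7r*, the marker that names the cluster, is counted in both lists. *Il18r1*, an IL-18 receptor chain, was at 67.1 CPM against 36.6, and *Il10ra*, an IL-10 receptor chain, at 44.0 against 93.7.

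The cytotoxic granule list was low beyond *Gzmb*. All 11 members were above the minimum, and none was higher. Against all other cells 6 were lower, and against the comparison clusters 8, with medians of -0.81 and -0.89. The shares of lower genes over all genes were 17.1% and 14.2%. *Gzmk* was at 279 CPM against 597, and *Nkg7*, a granule membrane protein, at 1047 against 1905. *Prf1*, encoding perforin, was at 58.3 CPM against 85.2, short of the 1.5-fold bound. *Ccl5*, a chemokine that cytotoxic T cells store, was at 6166 CPM against 7599, and *Ifng* was at 95.8 against 84.2, neither past the fold.

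Inhibitory receptors had their lowest summed level of the 12 clusters in cluster 5, 222 CPM (interval 203 to 243) against 288 to 609 elsewhere. Of 10 listed, 7 were above the minimum and 4 of these were lower (*Pdcd1*, *Tigit*, *Entpd1* and *Cd160*), with none higher and a median of -0.77. Among all genes, 17.1% were lower. *Pdcd1*, which encodes PD-1 and was used in the sort, was at 69.4 CPM (150 UMIs) against 119, with other clusters between 24.6 and 229. *Tigit* was at 29.6 CPM, the lowest kidney level, against 81.6. *Entpd1*, encoding CD39, was at 6.02 CPM (13 UMIs) against 37.5.

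Transcription factors of effector cells were also summed lowest in cluster 5, at 828 CPM against 1057 to 2609. Of 16 above the minimum, 10 were lower and none higher, and against the comparison clusters 5 of 13 were lower and 1 was higher (*Nr4a1*). Lower genes made up 17.1% and 14.2% of all genes in these comparisons. *Id2* was at 211 CPM against 498 (2.36-fold lower, interval 2.15 to 2.60). *Eomes* was at 49.1 CPM against 96.7 and *Tox* at 47.7 against 77.8. *Tbx21*, encoding T-bet, was at 53.7 CPM against 75.1, short of the 1.5-fold bound. *Nr4a1*, a gene induced by receptor signals, was at 25.5 CPM against 94.3 in all other cells and 14.2 in the comparison clusters, and cluster 8 held 733.

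Among S100, annexin and galectin genes, 8 of 15 were lower and none higher, with a median of -0.61. *S100a4* was at 225 CPM against 577 and *Lgals1*, encoding galectin-1, at 640 against 1402. Of 7 integrin genes above the minimum 2 were lower against all other cells, where 17.1% of all genes were lower. *Itgb1*, encoding CD29, was at 493 CPM against 560. Of 9 tissue residency genes 5 were above the minimum and 3 of these lower against all other cells, with a median of -0.63. Against the comparison clusters 2 of 5 were lower, where 14.2% of all genes were lower. The list median there was -0.27, near the -0.26 of all genes. *Itgae*, encoding CD103, had 12 UMIs. All 10 proliferation genes were lower against all other cells, and 6 of 6 above the minimum were lower against the comparison clusters. *Mki67* had 9 UMIs in cluster 5.

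Other lists moved little or depended on the comparator. Interferon-stimulated genes had 2 of 14 higher (*Oasl2* and *Rsad2*) and none lower. The immediate-early and AP-1 list had 1 of 12 higher and 3 lower against all other cells, but 6 of 10 higher and none lower against the comparison clusters. *Junb* was at 653 CPM in cluster 5, 766 in all other cells and 362 in the comparison clusters, and cluster 8 held 4515. Heat shock genes summed to 10016 CPM, the highest of the 12 clusters (others 6601 to 9687), with 3 of 9 higher (*Hspa1a*, *Hspa1b* and *Hspe1*). Against all other cells, none of 10 MHC class I genes, 2 of 12 glycolysis genes (both lower) and 1 of 10 growth genes (lower) passed the fold. Against the comparison clusters, 1 MHC class I and 2 glycolysis genes were lower, and 2 growth genes were higher and none lower. Against all other cells, 1 of 12 BCL2 family genes was higher and 4 lower, and 3 of 9 NF-kB genes were lower. Of 7 chemokine and cytokine genes 2 were lower, and of 3 NK receptor genes 1 was lower. Of 11 costimulatory and TNF family genes 2 were higher and 3 lower. Over all genes, 2.29% were higher and 17.1% lower against the same cells, and 2.15% and 14.2% against the comparison clusters. Against the comparison clusters, 1 of 9 NF-kB genes was higher and none lower (median 0.16). There, 1 of 12 BCL2 family genes was higher and 3 lower, and 1 of 7 chemokine and cytokine genes higher and 3 lower. The other 2 lists had 2 of 3 NK receptor genes lower, and 3 of 11 costimulatory genes higher and 3 lower.

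**Figure D4:**
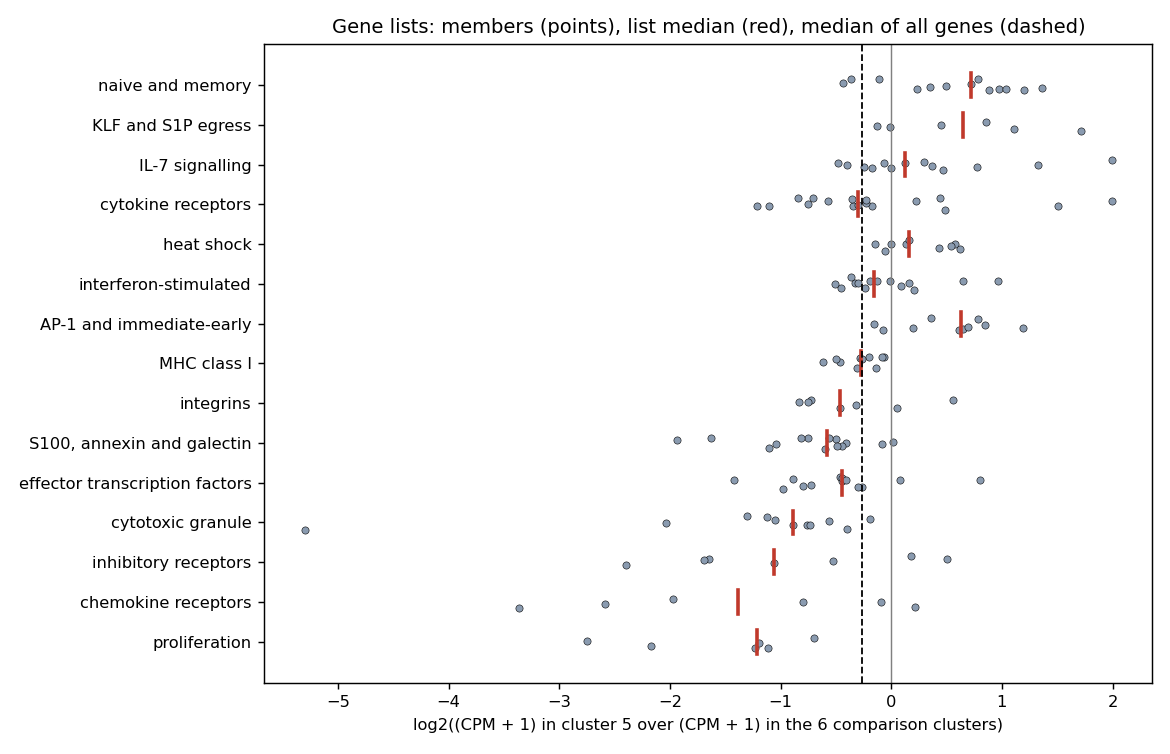
Log2 ratio of (CPM + 1) in cluster 5 over the 6 comparison clusters for the members of 15 gene lists above the minimum level; the red mark is the list median and the dashed line the median of all genes (-0.26). Naive and memory genes (median 0.72) lie mostly to the right, and chemokine receptors (median -1.38), inhibitory receptors and proliferation genes to the left.

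The labelled cell type was checked against its markers. *Cd8a* was at 631 CPM and *Cd3e* at 1130, against 746 and 1320 in all other kidney cells and 926 and 1610 in the comparison clusters. *Cd44* was at 63.4 CPM, against 75.1 and 80.4. Cluster 5 ranked number 8 of 12 for *Cd8a*, 7 for *Cd3e* and 9 for *Cd44*. Of 10 sort marker and T cell receptor genes, 1 (*Pdcd1*) was lower past the fold with either comparator and none higher. Several defining markers of other cells, but not all, were at or near 0 in cluster 5. *Ebf1*, *Itgam*, *Adgre1*, *S100a8*, *S100a9* and *Ngp* had 0 UMIs, *Lyz2* and *Cd79a* had 3 each, *Cd4* had 12 and *Foxp3* 2. *Cd74* was at 43.0 CPM, *Cd79b* at 22.2 and *Gpx3* at 17.6, against 35.4, 19.3 and 17.4 in the comparison clusters. The 10 B cell markers summed to 306 CPM, against 202 to 39218 in the other clusters, with 2 of 10 at 0 and *Ighm* at 127. The 10 myeloid markers summed to 200, below all others (210 to 27874), with 2 of 10 at 0 and *Cst3* at 187. The 9 kidney tubule markers summed to 30.1 CPM, against 13.7 to 14154, with 4 of 9 at 0, and the 5 CD4 and regulatory markers to 14.3, against 7.82 to 52.0, with none at 0. Erythroid markers summed to 2.31 CPM (2 of 5 at 0), neutrophil markers to 0.463 (3 of 4 at 0) and endothelial markers to 28.7 (3 of 4 at 0, *Pecam1* making up the sum). The 2 gamma delta markers matched summed to 0.926 CPM, and the 5 NK and innate-like markers to 1049, nearly all from *Nkg7*, with *Ncr1* at 0. Immunoglobulin transcripts were also present. *Igkc* was at 90.3 CPM and *Igha* at 40.3 (87 UMIs), against 37.0 and 13.2 in the pooled comparison clusters. Cluster 3, which is among these, exceeded cluster 5 for *Igha* at 54.5 CPM. Clusters 2 and 7 held 2045 and 367 CPM of *Igha*. The part of immunoglobulin transcripts in other values was not tested.

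The whole profile of cluster 5 was most like kidney clusters 9 and 4. Over 7610 genes at 10 CPM or more in the mean of 33 clusters, Pearson r of log2(CPM + 1) was 0.979 with cluster 9 and 0.978 with cluster 4. Cluster 2 of 28W spleen followed at 0.975, and the closest cluster of 12W spleen was cluster 2 at 0.969. Kidney cluster 3 was at 0.957. These r are across genes, which are not independent replicates, and share the base level of each gene.

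Cluster 9 differed from cluster 5 in few genes upward. Of 6903 genes, 54 were higher in cluster 5 (0.782%) and 853 lower (12.4%). *Il7r* was at 624 against 404 CPM and *Klf2* at 610 against 439, below the 1.5-fold bound for *Klf2*. None of 13 naive and memory genes passed the fold, but 5 of 14 interferon-stimulated genes were higher and none lower. *Rsad2*, an antiviral interferon-induced gene, was at 54.6 CPM against 18.4. *Gzma* was higher too, at 89.3 against 42.6. Lower genes were *Gzmb* (6.94 against 39.7), *Ccr2* (15.3 against 50.9) and *Tigit* (29.6 against 66.8), so the low *Gzmb* and *Ccr2* transcripts set cluster 5 apart from its nearest neighbour as well.

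Against kidney cluster 4, 180 of 6689 genes were higher (2.69%) and 445 lower (6.65%). *Klf2* was at 610 against 234 CPM, *Klf3* at 104 against 39.9 and *Lef1* at 82.9 against 41.1. The *Il7r* level was 624 against 266. *Cxcr6* was at 172 against 504, and *Tcrg-V6*, a gamma chain segment of gamma delta T cells, had 1 UMI in cluster 5 (0.463 CPM) against 37.9 CPM. Against kidney cluster 3, 214 of 7045 genes were higher (3.04%) and 2276 lower (32.3%), with *Il7r* at 624 against 88.1 and *Ccr7* at 88.0 against 14.2.

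Spleen clusters gave another order, with tables that the authors normalized separately. *Il7r* in cluster 5 lay above 9 of 11 clusters of 28W spleen (54.0 to 760 CPM) and 9 of 10 of 12W spleen (13.2 to 685). *Lef1* lay above only 2 of 11 clusters of 28W spleen (40.5 to 370 CPM) and none of 10 of 12W spleen (95.7 to 776). *Ccr7*, at 88.0 CPM (interval 75.9 to 101), was below every spleen cluster (92.9 to 930). Cluster 2 of 28W spleen lay within the cluster 5 intervals for *Ccr7* (92.9 CPM) and *Lef1* (74.6 CPM, interval 71.2 to 95.9). The cluster that was *Il7r*-high and among the highest for *Lef1* within the kidney was therefore low for *Lef1* and *Ccr7* among spleen clusters. In contrast, *Cxcr6* at 172 CPM (interval 155 to 190) was above the level of all spleen clusters (8.67 to 151). The highest of these was cluster 8 of 12W spleen, which held only 284846 UMIs. No interval was computed for its level, so an overlap with cluster 5 was not assessed. Cluster 2 of 12W spleen stood at 137 CPM.

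Compared with cluster 2 of 28W spleen, 84 of 6807 genes were higher (1.23%) and 678 lower (9.96%). Compared with cluster 2 of 12W spleen, 134 of 6871 were higher (1.95%) and 811 lower (11.8%). *Hspa1a*, an inducible heat shock gene, was at 1121 CPM against 36.7 and 9.55 in these clusters, and the other kidney clusters spanned 90.6 to 1164. *Klf2* was at 610 CPM against 1377 and 1201. *Dtx1*, a Notch pathway gene, was at 36.1 against 149 and 232, and *Cd7* at 81.0 against 408 and 447. Of 14 interferon-stimulated genes, 8 were higher than in the 28W spleen cluster and 12 than in the 12W spleen cluster, with none lower. By the titles both 28W groups have the same age, so organ and digestion cannot be told apart in the comparison with 28W spleen, and age, organ and digestion cannot be told apart in that with 12W spleen.

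**Figure D5:**
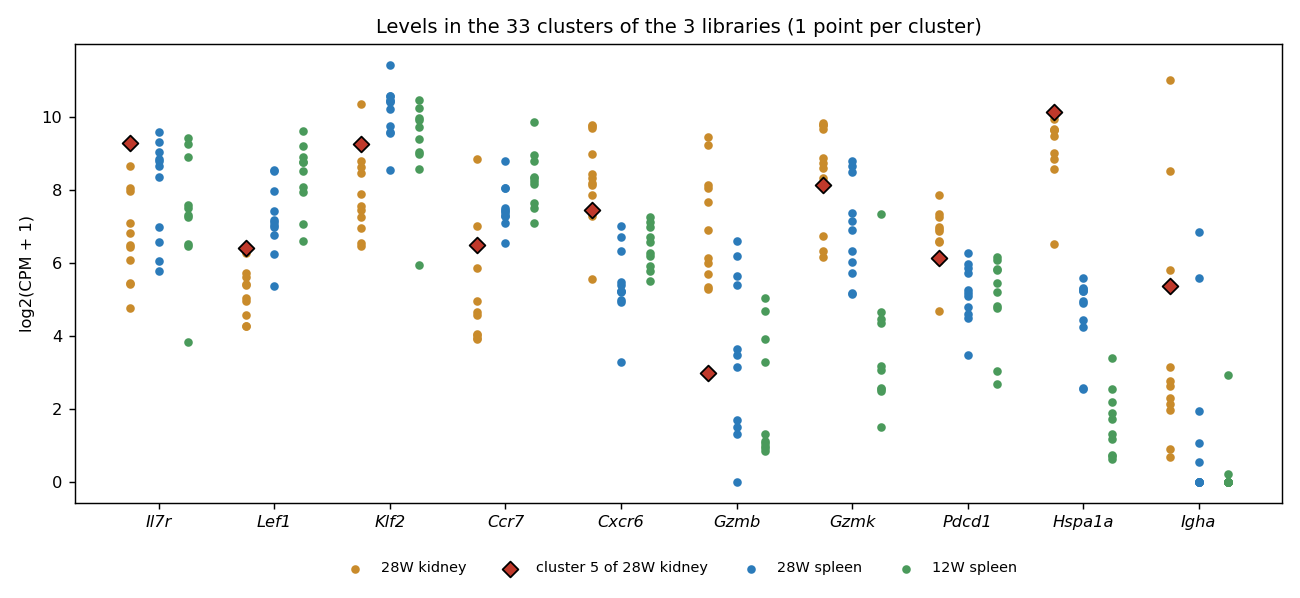
Levels of 10 genes in the 33 clusters of the 3 libraries, as log2(CPM + 1), 1 point per cluster, with cluster 5 of 28W kidney as a red diamond. Cluster 5 is highest among kidney clusters for *Il7r*, lies low among spleen clusters for *Lef1* and *Ccr7*, and shares a *Hspa1a* level above all spleen clusters with the other kidney clusters.

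T cell receptor beta V segments were read from 3349 *Trbv* UMIs in cluster 5 and 48572 in the other kidney cells. *Trbv13-2* took 23.9% in cluster 5 (exact binomial interval 22.4 to 25.3%) and 23.1% in the others. *Trbv13-1* took 19.1% (17.7 to 20.4%) against 25.7%. The lowest other cluster stood at 19.3%, within that interval. *Trbv31* took 8.36% (7.44 to 9.35%) against 4.92%, above all others (1.87 to 7.26%). The effective number of *Trbv* segments (the inverse of the summed squared shares) was 7.58 in cluster 5 and 6.60 in the pooled other cells, with the other clusters from 5.53 to 8.18. Cells of a clone share a segment, so these intervals are too narrow.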

How the data were processed

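Sorted CD8+ T cells were measured by 10x Genomics 5′ v2 single-cell RNA sequencing. For each library the authors deposited each barcode's cluster number and, per cluster, the mean count of every gene (other columns hold their log2 fold changes and adjusted p, not used). The authors clustered each library separately. The submitters' processing notes name Cell Ranger 2.1.1, R 3.6.1 and GRCm38, and the cell filters and annotation release are not given in the sources used here. Each column held whole multiples of 1 step (100% of values within 0.001), which gave UMIs. Per-cell counts and doublets were not analysed here. Some items are not reported here.

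Python 3.11.15 with numpy 2.4.6, pandas 2.3.3 and scipy 1.17.1 was used, and scripts were tested on simulated data. Coordinates are from GENCODE M21 (GRCm38) by gene identifier. Log2 ratios add 1 CPM, genes needed a mean of 10 CPM over both sides, and the bound was 1.5-fold. The rule named the 15 highest and 15 lowest ratios and list members. The members and lists were chosen with earlier results of these data known. Alternatives changed the scaling, pseudocount, minimum and comparator.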

Additional observations from a re-analysis of the deposited data

How the results depend on the processing

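Counts of genes past the fold depended on the setting. Higher genes numbered 162, and 415 with median of ratios scaling, 358 with totals without receptor, mitochondrial and ribosomal genes, 97 with a pseudocount of 10 CPM, 447 with no minimum beyond 1 UMI and 81 with a minimum of 50 CPM. In the same order, lower genes numbered 1208, and 645, 630, 726, 4041 and 315, and 667 against the median of the 11 other clusters. Leaving out each other cluster in turn gave 107 to 197 higher and 1054 to 1372 lower genes. The *Il7r* log2 ratio of 2.30 became 2.57 and 2.54 under these scalings, 1.996 without clusters 2, 7, 8, 11 and 12, 2.19 with clusters weighted by cells, 2.81 against the cluster median and 2.11 to 2.64 with each cluster left out. The *Lef1* ratio of 0.94 became 1.20 with median of ratios scaling and 0.87 to 1.12 with each cluster left out. Cluster 9 remained the most like cluster 5 by Spearman rho (0.967) and without receptor, mitochondrial and ribosomal genes (0.975).

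Of 82 genes tried, 6 that were past the 1.5-fold bound against all other kidney cells turned direction. A change of sign within the bound was not counted. *Junb*, for example, had a log2 ratio of -0.23 against all other cells and 0.85 against the comparison clusters. Without clusters 2, 7, 8, 11 and 12 the log2 ratio was 0.28 for *Cd74*, 1.54 for *Igha*, 1.27 for *Igkc*, 0.035 for *Jchain*, 0.80 for *Nr4a1* and 0.37 for *Pim1*. Against the cluster median it was 2.74 for *Igha*, 0.63 for *Igkc*, 0.68 for *Nr4a1* and 0.21 for *Pim1*. With 1 cluster left out it ranged from -1.59 to 0.40 for *Igha* (highest without cluster 2), -2.11 to 0.16 for *Nr4a1* and -1.17 to 0.27 for *Pim1* (highest without cluster 8). Counts of list members stayed within 1.5 times in 347 of 450 recomputed values. No paired analysis was possible because cells are not mapped to samples. With 1 library, variation between mice is not covered.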
